A study of Mus musculus with 12 samples.

Results

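The genes described here are 9 genes for integrin chains and related adhesion molecules of T cells, namely the integrin alpha chains *Itgal*, *Itga4* and *Itga6*, the integrin beta chains *Itgb1*, *Itgb2* and *Itgb7*, the integrin ligand *Icam1*, the hyaluronan receptor *Cd44* and the selectin ligand *Selplg*. They were chosen by name, and all 9 were found among 24439 gene names and among the 12442 genes that were over 1 TPM (a share of all transcripts, corrected for length) in at least 1 library. RNA-Seq measured them in 12 libraries of mouse CD4 T-blast cells (TB), which are dividing T cells shortly after a first activation, to ask what IL-2, the growth factor of such cells, contributes to steady-state and inducible expression. In every group, splenic CD4 T cells of C57BL/6 C42 mice, which carry a fragment of the human *IL3/CSF2* locus as a transgene, were isolated with CD4 microbeads, stimulated for 40 h with 2 µg/ml of the lectin ConA and then grown in 50 U/ml IL-2. For that growth the methods give 30 h and the labels 2 days. In TB IL-2 the cells stayed in IL-2, in TB IL-2nil they were left without IL-2 for the last 16 h, and TB+ IL-2 and TB+ IL-2nil were the same cultures stimulated further with PMA/I, which is 20 ng/ml of the phorbol ester PMA with 2 µM of the calcium ionophore A23187, for 2 h. Each group had 3 libraries. The age of the mice is not given in the sources used here, nor whether the libraries of a group came from separate animals or cultures, so P-values measure the spread between these libraries, which may be technical.

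Integrins are dimers of an alpha and a beta chain that hold a T cell to other cells and to matrix, and signals from inside the cell switch them between states of low and high affinity. The chain of *Itgal* pairs with that of *Itgb2* to form LFA-1, which binds ICAM family ligands, the chain of *Itga4* pairs with that of *Itgb1* to bind VCAM-1 and fibronectin or with that of *Itgb7* to bind the mucosal ligand MAdCAM-1, and the chain of *Itga6* pairs with that of *Itgb1* to bind laminin. CD44 binds hyaluronan and is a common marker of T cells that have met antigen, while PSGL-1, the product of *Selplg*, is bound by selectins during rolling on vessel walls.

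In 2 libraries the label and the values disagree. *Il2*, which PMA/I induces, stood at 3539 TPM in the library labelled TB IL-2nil replicate 3 and at 0.997 TPM in the library labelled TB+ IL-2 replicate 3, while it was between 0 and 4.17 TPM in the other libraries labelled TB and between 4116 and 8949 TPM in the others labelled TB+. The study's own list of expression values holds each of these libraries under the label of the other, and here each was placed in the other's group, as that list has it (the 2 moved libraries). Results are given in this placement, and again without both libraries and with the labels as they stand. Relative depth, read from the steps between low values, differed by 3.05 times between the shallowest library (TB IL-2nil replicate 2) and the deepest, and short non-coding RNA took 16.6 to 53.2% of the TPM of a library. That share did not overlap between the stimulated groups, at 22.2 to 27.5% in TB+ IL-2 and 33.0 to 53.2% in TB+ IL-2nil. T cell markers matched the label, with 6 T cell genes summing to 1720 to 2884 TPM and *Cd4* at 100.2 to 371 TPM. The mean of *Cd4* was 134 TPM in TB IL-2 and 333 TPM in TB IL-2nil. *Zbtb7b*, the other CD4 T cell gene listed, had means of 45.9 and 56.1 TPM in these groups. After PMA/I its means were 7.42 TPM in TB+ IL-2 and 7.40 TPM in TB+ IL-2nil. Of other cells, the 3 B cell genes *Cd79a*, *Cd79b* and *Ms4a1* summed to 5.05 to 9.74 TPM in TB IL-2, 20.4 to 26.6 in TB IL-2nil, 2.09 to 2.81 in TB+ IL-2 and 4.74 to 12.1 in TB+ IL-2nil. The 2 CD8 T cell genes summed to 6.91 to 31.9 TPM, 5 myeloid genes to 1.58 to 3.75 TPM, 4 platelet genes, one of them an integrin subunit, to 0.0496 to 2.22 TPM, 5 endothelial and stromal genes to 0.056 to 0.431 TPM, and 3 NK cell genes to at most 0.303 TPM, with *Ncr1* listed at 0 in all 12 libraries. The B cell genes moved with the IL-2nil groups as several of the 9 genes did, and their part in those results was not tested.

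RefSeq promoter entries (GRCm38.p6) were found for 5 of the 9 genes, *Itga4*, *Itgb1*, *Itgb7*, *Icam1* and *Cd44*, and not for *Itgal*, *Itga6*, *Itgb2* and *Selplg*. The 250 bases before the transcription start are shown for *Itga4*, the gene that differed most with IL-2, and for *Cd44* and *Icam1*, both induced by PMA/I, and capitals mark matches to 5 motifs. *Itga4* is at chr2:79255176-79255425 on the plus strand, *Cd44* at chr2:102901666-102901915 on the minus strand and *Icam1* at chr9:21015690-21015939 on the plus strand.
Itga4: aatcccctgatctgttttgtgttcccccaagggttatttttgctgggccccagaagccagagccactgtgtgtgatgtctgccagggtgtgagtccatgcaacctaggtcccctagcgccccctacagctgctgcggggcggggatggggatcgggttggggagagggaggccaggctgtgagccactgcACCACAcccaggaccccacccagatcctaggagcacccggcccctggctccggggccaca
Cd44: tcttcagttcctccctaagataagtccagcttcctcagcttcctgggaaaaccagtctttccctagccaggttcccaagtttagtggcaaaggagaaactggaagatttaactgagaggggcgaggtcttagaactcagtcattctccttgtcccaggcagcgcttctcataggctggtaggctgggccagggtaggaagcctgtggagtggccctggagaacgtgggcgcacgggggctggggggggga
Icam1: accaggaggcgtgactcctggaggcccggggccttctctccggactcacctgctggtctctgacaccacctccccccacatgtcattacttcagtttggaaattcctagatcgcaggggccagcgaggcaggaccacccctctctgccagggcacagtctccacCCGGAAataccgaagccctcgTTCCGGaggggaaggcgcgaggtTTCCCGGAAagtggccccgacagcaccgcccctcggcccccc
The motifs were sought on both strands as TGANTCA for AP-1, TTCNNNGAA for STAT, TGTGGT for RUNX, CCGGAA for ETS and a longer pattern with degenerate letters for NF-kB, given here by the factor's name alone, and they occur in 6.75%, 7.02%, 14.0%, 12.03% and 7.25% of 32851 such promoters. *Itga4* held 1 RUNX match, ACCACA on the strand shown, which starts at position -60 from the transcription start. *Icam1* held a STAT match, TTCCCGGAA, at position -42 and ETS matches at -86, -65 and -39, the last of which overlaps the STAT match. No match to these 5 patterns was found in the windows of *Cd44*, *Itgb1* and *Itgb7*. A match is a description of these letters and not a site of binding. The search allowed no mismatch, so a window without a match may still hold sites that differ from the pattern. This holds for NF-kB in *Icam1* as well, where the pattern used found no match.

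Of the 3 alpha chains, *Itga4* (mm9, GENCODE M1 gene models, chr2:79095583-79173280, plus strand) encodes the alpha 4 chain and was far lower with IL-2. Its level was 15.7, 8.59 and 11.9 TPM in the 3 TB IL-2 libraries and 95.9, 98.9 and 74.5 TPM in TB IL-2nil. All 3 libraries with IL-2 were below all 3 without. The difference of TB IL-2 minus TB IL-2nil came to -2.82 in log2(TPM + 1), or 7.08-fold on that scale (standard error, SE, 0.27; adjusted P = 6.67e-05 by limma with Benjamini-Hochberg adjustment over all genes tested, as for every adjusted P below). With PMA/I the level was 5.92, 5.67 and 6.10 TPM in TB+ IL-2 and 13.1, 15.7 and 27.1 TPM in TB+ IL-2nil. Each of the 6 stimulated libraries fell outside the range of its unstimulated group, on the low side, and the IL-2 groups stayed apart. *Itga4* fell by 2.26 on the log2 scale (SE 0.27, adjusted P = 3.52e-05) with PMA/I after IL-2nil and by 0.88 (SE 0.27, adjusted P = 0.0241) with PMA/I in IL-2, and TB+ IL-2 minus TB+ IL-2nil was -1.44 (SE 0.27, adjusted P = 0.00381). The response to PMA/I in IL-2 minus that after IL-2nil was 1.38 (SE 0.38) and did not pass the test (adjusted P = 0.0633). With the replicate number as a block the same interaction passed it (adjusted P = 0.048). It also passed without the library TB IL-2 replicate 1 (1.58, adjusted P = 0.041) and without TB+ IL-2nil replicate 3 (1.67, adjusted P = 0.0156), the one at 27.1 TPM. Beside the labels as they stand, it passed in 4 of 21 alternatives, quantile normalization among them. Leaving out TB+ IL-2nil replicate 3 also raised the calls for the interaction over all genes, from 526 of 12442 to 1302 of 12406.

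*Itga6* (chr2:71583673-71696473, plus strand) encodes the alpha 6 chain of a laminin receptor. It was at 22.1, 19.0 and 19.3 TPM in TB IL-2, at 44.8, 38.0 and 39.2 TPM in TB IL-2nil, at 8.70, 9.56 and 13.6 TPM in TB+ IL-2 and at 11.5, 7.31 and 13.7 TPM in TB+ IL-2nil. The unstimulated groups did not overlap and were separated by 2-fold in their means, whereas the stimulated groups lay on top of each other, below both. TB IL-2 minus TB IL-2nil was -0.98 in log2(TPM + 1) (SE 0.22, adjusted P = 0.0057). *Itga6* fell by 1.85 on the log2 scale (SE 0.22, adjusted P = 4.09e-05) with PMA/I after IL-2nil and by 0.88 (SE 0.22, adjusted P = 0.0105) in IL-2. Between the stimulated groups the difference was -0.0070, with an interval from -0.50 to 0.48 (95%, adjusted P = 0.992). The interaction of 0.97 (SE 0.31) was not called (adjusted P = 0.103). It was called in 1 of 21 alternatives beside the labels as they stand, without TB+ IL-2nil replicate 3 (1.15, adjusted P = 0.0412). Calls over all genes also rose in that fit, as given for *Itga4*.

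*Itgal* (chr7:134439774-134478651, plus strand) encodes the alpha chain of LFA-1 and had the highest level of the 3 alpha chains in every library. It stood at 110.4, 94.4 and 115 TPM in TB IL-2 and at 134, 139 and 190.0 TPM in TB IL-2nil, where the highest value is that of the library labelled TB+ IL-2 replicate 3. The groups did not overlap, yet the difference of -0.52 in log2(TPM + 1) (SE 0.19) just missed the threshold (adjusted P = 0.0505). With the replicate block it was called (adjusted P = 0.0124), and without both moved libraries it was -0.37 (adjusted P = 0.206). With PMA/I the level was 99.0, 83.2 and 93.9 TPM in TB+ IL-2 and 86.9, 73.3 and 109.7 TPM in TB+ IL-2nil. These 2 groups overlapped, with a difference of 0.047 on the log2 scale and an interval from -0.37 to 0.47. *Itgal* fell by 0.77 on the log2 scale (SE 0.19, adjusted P = 0.00461) with PMA/I after IL-2nil, and gave -0.21 in IL-2 (SE 0.19, adjusted P = 0.428). With no filter, which also changes the percentile used for scaling, the first of these was -0.32 and was not called (adjusted P = 0.222). Relative to the median of all genes (-0.38), *Itgal* was at -0.40 with PMA/I after IL-2nil.

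The beta chains among the 9 genes moved less than *Itga4* and *Itga6* at rest and in their responses to PMA/I, but not always less than *Itgal*. *Itgb7* (chr15:102046426-102062366, minus strand), the partner of alpha 4 in the receptor for MAdCAM-1, was at 248, 250.4 and 285 TPM in TB IL-2 and at 318, 292 and 294 TPM in TB IL-2nil. Under PMA/I it was at 199.5, 199.8 and 229 TPM in TB+ IL-2 and at 177, 139 and 181 TPM in TB+ IL-2nil. Both stimulated groups lay below both unstimulated ones, and the order of the IL-2 groups was opposite at rest and after PMA/I, without overlap in either state. *Itgb7* fell by 0.87 on the log2 scale (SE 0.15, adjusted P = 0.000433) with PMA/I after IL-2nil. Relative to the median of all genes in that comparison (-0.38), *Itgb7* was at -0.49. In IL-2 its difference with PMA/I was -0.32 (SE 0.15, adjusted P = 0.12). TB IL-2 minus TB IL-2nil gave -0.21 (SE 0.15, adjusted P = 0.288), TB+ IL-2 minus TB+ IL-2nil gave 0.35 (SE 0.15, adjusted P = 0.12), and the interaction of 0.55 (SE 0.21) missed the threshold (adjusted P = 0.148).

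*Itgb1* (chr8:131209554-131257100, plus strand), the shared partner of alpha 4 and alpha 6, was at 56.5, 74.5 and 55.7 TPM in TB IL-2, at 65.6, 59.0 and 48.4 TPM in TB IL-2nil, at 81.0, 107 and 75.7 TPM in TB+ IL-2 and at 79.4, 99.6 and 74.3 TPM in TB+ IL-2nil. Every stimulated library was above its unstimulated group, by a small margin, and IL-2 made no gap in either state. *Itgb1* was 0.54 higher in log2(TPM + 1) with PMA/I after IL-2nil (SE 0.20, adjusted P = 0.0337). This call is fragile. It was lost without both moved libraries (0.42, adjusted P = 0.134), as it was without the library TB IL-2nil replicate 2, TB+ IL-2nil replicate 1 or 2, or the one labelled TB+ IL-2 replicate 3 (0.42 to 0.58, adjusted P = 0.0533 to 0.125), and after quantile normalization (0.30, adjusted P = 0.216), and with TPM not scaled further the difference was -0.0069. The median of all genes in this comparison was -0.38, and -0.78 without further scaling, so relative to the median *Itgb1* was 0.92 and 0.77 higher. After quantile normalization *Itgb1* was 0.45 higher than the median. In IL-2 the difference with PMA/I was 0.49 (SE 0.20, adjusted P = 0.0776, and 0.0165 with the replicate block).

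*Itgb2* (chr10:76992997-77028453, plus strand) encodes the beta chain that LFA-1 shares with other leukocyte integrins. It varied least of the 9 genes, at 131, 159 and 134 TPM in TB IL-2, at 141, 168 and 145 TPM in TB IL-2nil, at 153, 168 and 137 TPM in TB+ IL-2 and at 179, 156 and 161 TPM in TB+ IL-2nil. All 4 groups overlapped with the groups they were compared with. Its differences ran from -0.12 to 0.13 in log2(TPM + 1) in the 4 comparisons, each with an SE of 0.15, and none passed the test (adjusted P = 0.464 to 0.62). The intervals together reach from -0.44 to 0.45. With PMA/I after IL-2nil both the sign and the call depend on the scaling. *Itgb2* was called lower after quantile normalization (-0.34, adjusted P = 0.0444) and higher with no filter (0.58, adjusted P = 0.0132), and was at -0.42 with TPM not scaled further (adjusted P = 0.157).

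**Figure D1:**
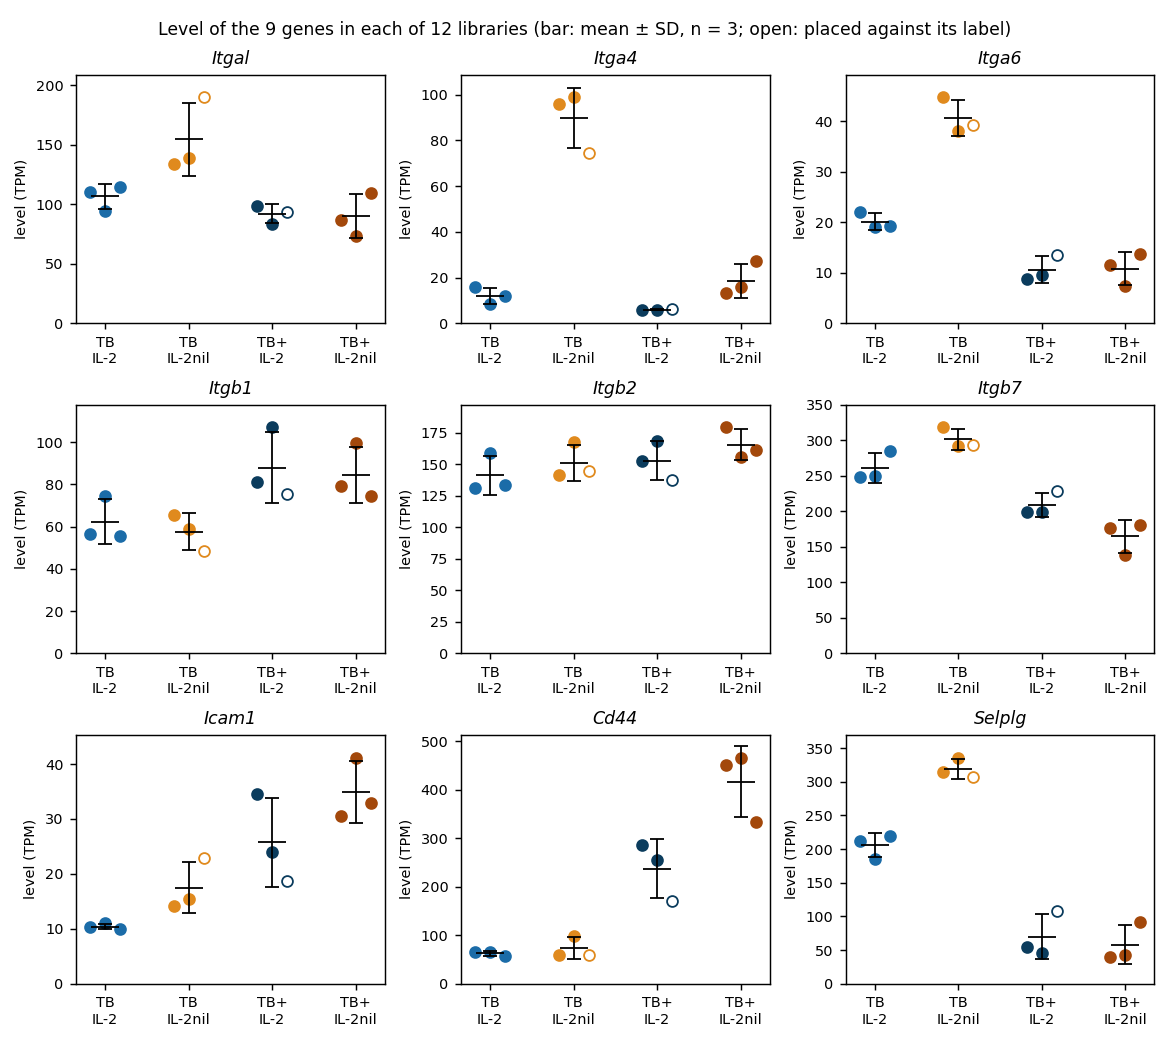
Level in TPM of each of the 9 genes (vertical axis, linear, from 0) in the 12 libraries, by group (horizontal axis); the bar is the mean ± SD of 3 libraries, and open circles are the libraries placed against their labels. *Itga4* stands at 74.5 to 98.9 TPM in TB IL-2nil and at 27.1 TPM or less in every other group, and *Cd44* is at 170.0 TPM or more in all 6 stimulated libraries and at 98.8 TPM or less in the other 6.

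*Icam1* (chr9:20820404-20833241, plus strand) encodes the ligand that LFA-1 binds on other cells, and it had the lowest mean level of the 9 genes at rest. Its level was 10.4, 10.96 and 9.90 TPM in TB IL-2 and 14.2, 15.5 and 22.8 TPM in TB IL-2nil, where the highest is again the library labelled TB+ IL-2 replicate 3. It rose with PMA/I to 34.5, 24.0 and 18.7 TPM in TB+ IL-2 and to 30.5, 41.2 and 32.9 TPM in TB+ IL-2nil. No stimulated library overlapped its unstimulated group, while the 2 stimulated groups overlapped each other. *Icam1* was 1.19 higher on the log2 scale with PMA/I in IL-2 (SE 0.24, adjusted P = 0.00301) and 0.97 higher after IL-2nil (SE 0.24, adjusted P = 0.00411). The second of these was 0.44 and not called (adjusted P = 0.249) with TPM not scaled further, or 1.21 relative to the median of all genes under that scaling, against 1.35 in the scaling used here. TB IL-2 minus TB IL-2nil was -0.67 (SE 0.24, adjusted P = 0.042). Beside the labels as they stand, that call was lost in 8 of 16 alternatives, with each TB IL-2 library left out in turn (adjusted P = 0.079 to 0.107), without TB IL-2nil replicate 2 (adjusted P = 0.061) and without the library labelled TB+ IL-2 replicate 3 (adjusted P = 0.149) among them. Between the stimulated groups the difference was -0.46 (SE 0.24, adjusted P = 0.194).

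*Cd44* (chr2:102651298-102741822, minus strand), the hyaluronan receptor, was at 66.1, 64.6 and 57.4 TPM in TB IL-2 and at 59.7, 98.8 and 60.1 TPM in TB IL-2nil. These groups overlapped, and the 1 high value is that of the shallowest library. With PMA/I it reached 286, 255 and 170.0 TPM in TB+ IL-2 and 450.5, 466 and 333 TPM in TB+ IL-2nil. All 6 stimulated libraries were far above the unstimulated ones, and every TB+ IL-2nil library was above every TB+ IL-2 library. *Cd44* was 2.52 higher in log2(TPM + 1) with PMA/I after IL-2nil (SE 0.25, adjusted P = 1.18e-05) and 1.87 higher in IL-2 (SE 0.25, adjusted P = 0.000281), or 5.75-fold and 3.66-fold. TB+ IL-2 minus TB+ IL-2nil was -0.83 (SE 0.25, adjusted P = 0.0368), and beside the labels as they stand this call was lost in 8 of 16 alternatives. The difference was -0.61 without the library labelled TB IL-2nil replicate 3 (adjusted P = 0.143), the one at 170.0 TPM, -0.90 without TB+ IL-2 replicate 2 (adjusted P = 0.0646), and -0.76 and -0.74 without TB+ IL-2nil replicate 1 or 2 (adjusted P = 0.114 and 0.0922). The interaction of -0.65 (SE 0.35) did not pass the test (adjusted P = 0.293).

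*Selplg* (chr5:114267807-114280510, minus strand), the gene of PSGL-1, took the opposite course to *Cd44*. It was at 213, 185 and 219 TPM in TB IL-2, at 315, 336 and 307 TPM in TB IL-2nil, at 55.2, 45.9 and 108 TPM in TB+ IL-2 and at 39.3, 42.8 and 91.7 TPM in TB+ IL-2nil. At rest all libraries without IL-2 exceeded those with IL-2, and in both stimulated groups replicate 3 (in TB+ IL-2, the library labelled TB IL-2nil) was above the other two but below every unstimulated library. *Selplg* fell by 2.55 on the log2 scale (SE 0.34, adjusted P = 8.92e-05) with PMA/I after IL-2nil and by 1.64 (SE 0.34, adjusted P = 0.00399) in IL-2, or 5.85-fold and 3.12-fold. TB IL-2 minus TB IL-2nil was -0.64 (SE 0.34) and was not called (adjusted P = 0.162) although the groups did not overlap. The SE is shared over the 4 groups, and in a fit of the 2 unstimulated groups alone the same difference was called (adjusted P = 0.0107). Beside the labels as they stand, that was the only 1 of 16 alternatives with a call, and adjusted P reached 0.387 in the others. Between the stimulated groups the difference was 0.27, with an interval from -0.48 to 1.03.

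Seen by comparison, removal of IL-2 at rest went with higher mRNA of the alpha 4 and alpha 6 chains and of *Icam1*. Of the 9 genes, 3 were lower in TB IL-2 than in TB IL-2nil (*Itga4*, *Itga6* and *Icam1*) and none higher, where 39.6% of the 12442 genes were called, 22.3% lower and 17.3% higher. One of them, *Itga4*, passed 3-fold, as did 7.42% of all genes, and 6 of 9 had groups that did not overlap, against 53.2% of all genes. The median difference of the 9 genes was -0.52 in log2(TPM + 1) and that of all genes -0.13. Without both moved libraries *Itga4* (-2.95, adjusted P = 0.000763) and *Itga6* (-1.01, adjusted P = 0.0143) were called. With the labels as they stand none of the 9 was called and *Itga4* was at -1.69 (adjusted P = 0.59), with 1 gene, *Icam1*, at an unadjusted P under 0.05. Over all genes, 15 of 12442 were called as labelled and 3994 of 12360 without both moved libraries. In these bulk samples, fewer cells that carry a transcript and less of it in each cell cannot be told apart.

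PMA/I after IL-2nil moved the most of these genes. *Cd44*, *Icam1* and *Itgb1* were higher and *Selplg*, *Itga4*, *Itga6*, *Itgb7* and *Itgal* lower, so 8 of 9 genes were called, where 61.2% of all genes were, 41.1% lower and 20.1% higher. Past 3-fold were *Cd44*, *Selplg*, *Itga4* and *Itga6*, 4 of 9 genes against 18.5% of all genes, and 8 had groups without overlap, against 64.1%. The medians were -0.77 for the 9 genes and -0.38 for all genes. The split of 3 higher and 5 lower was 2 and 6 after quantile normalization, 1 and 5 with TPM not scaled further and 4 and 4 with no filter, where *Itgb2* was called higher and *Itgal* was not called. Calls over all genes were 6697 of 12442, 7410 of 12442 and 6382 of 24439 in these alternatives. Without both moved libraries 7 genes were called, all but *Itgb1* and *Itgb2*, and *Cd44* was at 2.40 (adjusted P = 9.8e-05) and *Selplg* at -2.58 (adjusted P = 0.00026). With the labels as they stand only *Icam1* was called (1.06, adjusted P = 0.0328). Over all genes, 669 of 12442 were called as labelled and 6641 of 12360 without both moved libraries.

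PMA/I in the presence of IL-2 raised *Cd44* and *Icam1* and lowered *Selplg*, *Itga4* and *Itga6*. These 5 of 9 genes stand beside 35.1% of all genes (11.8% higher, 23.3% lower), the 2 past 3-fold (*Cd44* and *Selplg*) beside 7.04%, and the 7 without overlap beside 51.7%. The medians were nearly the same, -0.21 for the 9 genes and -0.22 for all. With TPM not scaled further, 2 genes were higher and 1, *Selplg*, lower, and with no filter 3 were higher, *Itgb1* among them (0.79, adjusted P = 0.0395), and 1, *Selplg*, lower. The first of these alternatives called 2434 of 12442 genes and the second 2990 of 24439. *Itga6* was at -0.96 (adjusted P = 0.0683) and -0.60 (adjusted P = 0.101) in these 2 alternatives. Without both moved libraries 4 were called, with *Cd44* at 2.095 (adjusted P = 0.000474), *Icam1* at 1.39 (adjusted P = 0.00163), *Selplg* at -2.003 (adjusted P = 0.00247) and *Itga6* at -1.06 (adjusted P = 0.0113), while *Itga4* was at -0.90 (adjusted P = 0.0563). *Itga4* also lost its call without TB IL-2 replicate 1 (-0.69, adjusted P = 0.0963), the highest of its group, and without TB IL-2 replicate 3, TB+ IL-2 replicate 1 or TB+ IL-2 replicate 2 (adjusted P = 0.0614 to 0.0688). With the labels as they stand *Icam1* alone was called (1.28, adjusted P = 0.0375). Over all genes, 62 of 12442 were called as labelled and 3819 of 12360 without both moved libraries.

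Between the stimulated groups, *Itga4* and *Cd44* were lower with IL-2 than without, 2 of 9 genes beside 21.3% of all genes, 8.40% lower and 12.9% higher. Neither passed 3-fold, as 3.62% of all genes did, and 3 genes had groups that did not overlap, beside 37.2%. Without both moved libraries *Itga4* was called (-1.46, adjusted P = 0.0225) and *Cd44* was not (-0.60, adjusted P = 0.155), and with the labels as they stand none was called, with 1 at an unadjusted P under 0.05. Over all genes, 1200 of 12360 were called without both moved libraries and 27 of 12442 as labelled. With TPM not scaled further neither gene was called, with *Itga4* at -1.08 (adjusted P = 0.123) and *Cd44* at -0.43 (adjusted P = 0.426). The interaction, which asks whether the response to PMA/I differs with IL-2, was called in limma for 0 of the 9 genes, 3 of which (*Itga4*, *Itga6* and *Itgb7*) had an unadjusted P under 0.05, and for 4.23% of all genes, 2.66% lower and 1.57% higher, with 1.78% past 3-fold. These comparisons share groups, so their values for 1 gene are not independent of each other.

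**Figure D2:**
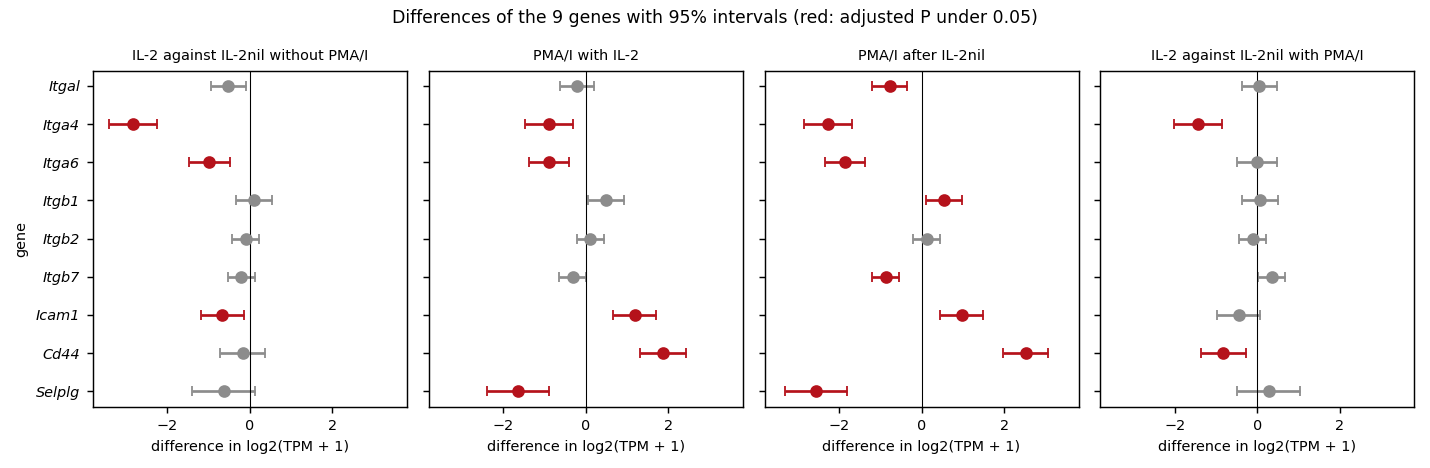
Difference in log2(TPM + 1) of each of the 9 genes (vertical axis) in the 4 comparisons between 2 groups, with 95% intervals from limma; red marks an adjusted P under 0.05. *Itga4* is at -2.82 for IL-2 against IL-2nil without PMA/I, and with PMA/I after IL-2nil *Cd44* is at 2.52 and *Selplg* at -2.55.

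The proportions of the integrin chains can be compared within a library, as TPM is corrected for length. Of the summed TPM of the 3 alpha chains, *Itga4* took 10.6, 7.04 and 8.14% in TB IL-2 and 34.9, 35.8 and 24.5% in TB IL-2nil. After PMA/I it took 5.45 ± 0.281% (SD, n = 3) in TB+ IL-2 and 15.3 ± 3.22% in TB+ IL-2nil. In both states every share without IL-2 was above every share with IL-2. The sum of these 3 alpha chains was 139 ± 14.5 TPM (SD, n = 3) in TB IL-2, 285 ± 16.3 in TB IL-2nil, 109 ± 8.76 in TB+ IL-2 and 119 ± 27.98 in TB+ IL-2nil. That of the 3 beta chains *Itgb1*, *Itgb2* and *Itgb7* stayed between 415 ± 20.7 and 510.3 ± 20.4 TPM over the 4 groups, above the alpha sum in each group. Other chains are outside these sums and shares. Among them, *Itgb3* was at 143 ± 50.5 TPM in TB IL-2nil and 34.6 ± 17.0 in TB+ IL-2nil, and *Itgav* at 132 ± 36.6 in TB+ IL-2nil. *Itga4* stood at 0.202 ± 0.0815 times the level of *Itgb1* in TB IL-2 and at 1.56 ± 0.109 times in TB IL-2nil, and at 0.0464 ± 0.015 and 0.298 ± 0.0429 times that of *Itgb7*. The ratio of *Itgal* to *Itgb2*, the 2 chains of LFA-1, was 0.765 ± 0.148 in TB IL-2, 1.03 ± 0.251 in TB IL-2nil, 0.609 ± 0.101 in TB+ IL-2 and 0.545 ± 0.117 in TB+ IL-2nil.

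Within these 3 beta chains, *Itgb7* took 56.3 ± 4.20% in TB IL-2 and 59.1 ± 2.43% in TB IL-2nil, and 46.6 ± 4.90% and 39.7 ± 4.16% after PMA/I. Its ratio to *Itgb1* was 4.39, 3.36 and 5.13 in TB IL-2, 4.85, 4.94 and 6.07 in TB IL-2nil, 2.46, 1.87 and 3.03 in TB+ IL-2 and 2.22, 1.39 and 2.43 in TB+ IL-2nil. Every ratio at rest was above every ratio after PMA/I. The ratio of *Cd44* to *Selplg* was 0.19 to 0.349 in the 6 unstimulated libraries and 1.57 to 11.5 in the 6 stimulated ones, with replicate 3 the lowest in both stimulated groups. These ratios were not tested.

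**Figure D3:**
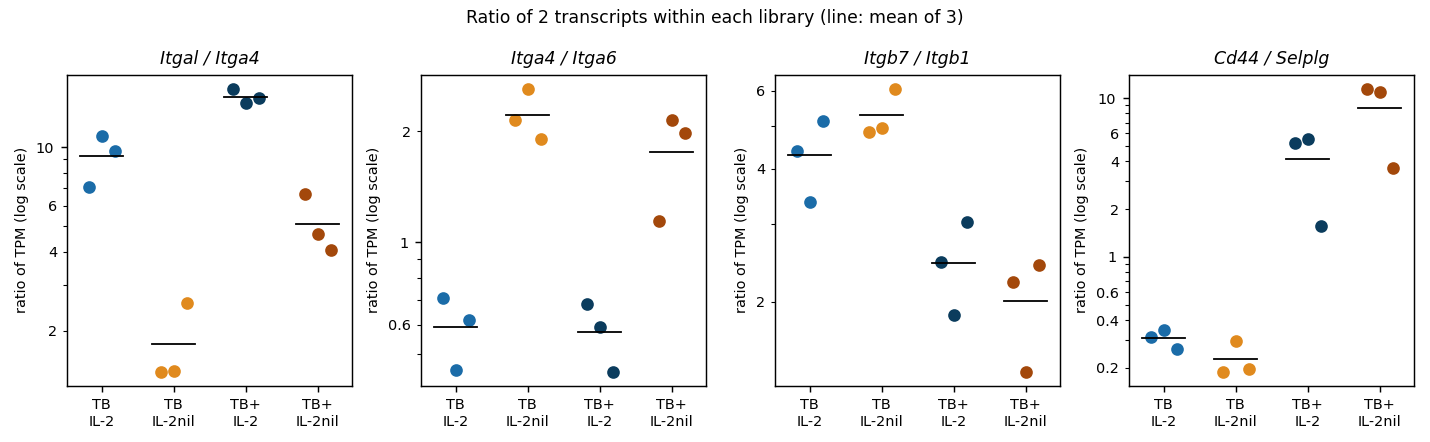
Ratio of the TPM of 2 transcripts within each library (vertical axes, log scale) by group (horizontal axis), with 1 point a library and the mean of 3 as a line. *Itga4* exceeds *Itga6* in all TB IL-2nil libraries (ratios of 1.90 to 2.60) and not in TB IL-2 (0.452 to 0.709), and *Cd44* exceeds *Selplg* only in stimulated libraries (1.57 to 11.5).

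The order of the levels changed with PMA/I. In TB IL-2, *Itgb7* was highest at 261 ± 20.9 TPM (SD, n = 3), followed by *Selplg* at 206 ± 17.9, *Itgb2* at 141 ± 15.3, *Itgal* at 107 ± 10.7, *Cd44* at 62.7 ± 4.68, *Itgb1* at 62.2 ± 10.6, *Itga6* at 20.1 ± 1.69, *Itga4* at 12.04 ± 3.53 and *Icam1* at 10.4 ± 0.531. Only the neighbours *Cd44* and *Itgb1*, and *Itga4* and *Icam1*, overlapped in this order. In TB IL-2nil, *Selplg* and *Itgb7* were highest and overlapped, at 319 ± 15.1 and 301 ± 14.8 TPM, *Itgal* and *Itgb2* followed and overlapped, and *Itga4*, at 74.5 to 98.9 TPM, moved up past *Itgb1*, at 48.4 to 65.6 TPM, and overlapped *Cd44*, with *Icam1* last at 17.5 ± 4.64 TPM. In TB+ IL-2, *Cd44* led at 237 ± 60.1 TPM, overlapping *Itgb7* at 209 ± 17.0 TPM, and *Selplg* had dropped to the sixth place at 69.8 ± 33.6 TPM, with *Itga4* last at 5.90 ± 0.216 TPM. In TB+ IL-2nil, *Cd44* at 416 ± 72.9 TPM was above all others without overlap, *Itgb2* and *Itgb7* came next at 165 ± 12.3 and 165 ± 23.1 TPM, and *Itga4* and *Itga6* were last at 18.6 ± 7.44 and 10.8 ± 3.23 TPM and overlapped.

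Over the 12 libraries, the pairs of the 9 genes with the highest Pearson correlation of log2(TPM + 1) were *Itga6* with *Selplg* (r = 0.939) and *Itgb7* with *Selplg* (r = 0.916), and the lowest were *Itgb7* with *Cd44* (r = -0.925) and *Cd44* with *Selplg* (r = -0.922). The 12 points fall into 4 groups and share library and depth, so these are descriptions of the group pattern. Among all genes tested, the 2 most like each gene were *Pcmtd1* (r = 0.995) and *Smap2* (r = 0.988) for *Itga4*, *Exoc2* (r = 0.989) and *Brap* (r = 0.987) for *Itga6*, and *Rbm33* (r = 0.970) and *Trrap* (r = 0.967) for *Itgal*. For the beta chains they were *Vps52* (r = 0.979) and *Pstk* (r = 0.978) for *Itgb7*, *AW209491* (r = 0.955) and *Slc25a32* (r = 0.950) for *Itgb1*, and the small nucleolar RNA genes *Snora23* (r = 0.906) and *Snord17* (r = 0.895) for *Itgb2*. They were *Btg3* (r = 0.990) and *Ghitm* (r = 0.987) for *Cd44*, *Apobec3* (r = 0.993) and *Gsk3b* (r = 0.987) for *Selplg*, and *Zfp655* (r = 0.963) and *4930413G21Rik* (r = 0.953) for *Icam1*.

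Around the 9 genes, 4 wider lists hold 117 further adhesion genes, of which 94 were over 1 TPM in at least 1 library. Among other integrin subunits, 12 of 20 were tested, 4 were called at rest (33.3%, beside 39.6% of all genes), all lower with IL-2, and 6 were called with PMA/I after IL-2nil (50%, beside 61.2% of all genes), 4 higher and 2 lower. *Itgav*, the alpha V chain, which pairs with the beta 3 chain of *Itgb3* and with *Itgb1*, was at 20.6 ± 3.20 TPM (SD, n = 3) in TB IL-2nil and 132 ± 36.6 in TB+ IL-2nil (2.60 higher on the log2 scale, adjusted P = 2.62e-05), and at 54.8 ± 19.7 in TB+ IL-2 (TB+ IL-2 minus TB+ IL-2nil -1.29, adjusted P = 0.0107). The latter call was lost with TPM not scaled further (-0.90, adjusted P = 0.107) and in a fit of these 2 groups alone (adjusted P = 0.0639). *Itgb3* was at 143 ± 50.5 TPM in TB IL-2nil and 34.6 ± 17.0 in TB+ IL-2nil, and fell by 2.08 on the log2 scale (adjusted P = 0.00041). In this list *Itga2b*, a platelet marker, was at 0.204 ± 0.135 TPM in TB IL-2 and 1.34 ± 0.204 TPM in TB IL-2nil (-0.96, adjusted P = 0.00396). It exceeded 1 TPM only in libraries without IL-2 and was at most 0.644 TPM in the others. It thus entered the test through the groups where it was high, and its values lie near the floor. Its call is among the 4 at rest and is no support for a difference. *Itgax*, among the 6 called with PMA/I after IL-2nil, had means of 0.201 TPM in TB+ IL-2 and 0.876 TPM in TB+ IL-2nil. For the comparison of these stimulated groups it stayed in the fit in 14 of 16 alternatives. Other genes of the 4 lists were not checked for this. The platelet genes *Pf4*, *Ppbp* and *Gp9* had group means of at most 0.201 TPM.

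Of 23 tested ligands and other adhesion receptors, 10 were called at rest (43.5%, beside 39.6% of all genes), 2 higher and 8 lower with IL-2, and 18 with PMA/I after IL-2nil (78.3%, beside 61.2%), 9 in each direction. *Jaml*, a junctional adhesion molecule, was higher with IL-2, at 18.2 ± 6.84 TPM against 1.11 ± 0.193 TPM (3.13, adjusted P = 0.000429), while *Pecam1*, the gene of CD31, was lower, at 22.8 ± 5.33 against 80.5 ± 4.35 TPM (-1.80, adjusted P = 0.000547). *Sema7a*, a semaphorin that binds integrins made with *Itgb1*, was at 2.48 ± 0.622 TPM in TB IL-2nil and 847 ± 139 TPM in TB+ IL-2nil (7.93 higher on the log2 scale, adjusted P = 1.03e-07). In IL-2 its response was smaller (interaction -2.36, adjusted P = 0.0307), a call lost without both moved libraries (-2.30, adjusted P = 0.0965).

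In integrin activation and actin linkage, 14 of 40 tested genes were called at rest (35%, beside 39.6% of all genes), 2 higher and 12 lower with IL-2, and 33 with PMA/I after IL-2nil (82.5%, beside 61.2%), 9 higher and 24 lower. *Actn1*, the actin crosslinker alpha-actinin 1, was at 25.0 ± 3.26 TPM in TB IL-2 and 216 ± 38.2 TPM in TB IL-2nil (-3.06, adjusted P = 2.75e-05), next to *Itga4* in size and direction, and also differed between the stimulated groups (-2.49, adjusted P = 0.000116). *Flna*, whose product filamin A binds integrin tails, was higher with IL-2 in both states (0.81, adjusted P = 0.0046 at rest, and 1.22, adjusted P = 0.0011 with PMA/I), though with TPM not scaled further it was not called at rest (0.73, adjusted P = 0.109). *Sipa1*, a negative regulator of the GTPase Rap1, which activates integrins, fell by 3.05 on the log2 scale (adjusted P = 4.71e-06) with PMA/I after IL-2nil. This was the largest of the 24 falls called there, and *Stk4* fell by 2.30 (adjusted P = 9.18e-05). Integrin activity was not measured.

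Among 19 tested partners of CD44 and of selectin ligands, 6 were called at rest (31.6%, beside 39.6% of all genes), 2 higher and 4 lower with IL-2, and 12 with PMA/I after IL-2nil (63.2%, beside 61.2%), 8 higher and 4 lower. *Srgn*, whose product serglycin can bind CD44, rose from 465 ± 32.5 TPM in TB IL-2nil to 4011 ± 717 TPM in TB+ IL-2nil (3.09, adjusted P = 7.89e-07). *Snx20*, whose product binds PSGL-1, fell by 2.96 on the log2 scale (adjusted P = 2.82e-05) in the same comparison, as *Selplg* did. The 4 lists together gave 34 calls at rest (6 higher, 28 lower), or 36.2% of those tested beside 39.6% of all genes, and 38 with PMA/I in IL-2 (21 and 17), or 40.4% beside 35.1%. They gave 69 with PMA/I after IL-2nil (30 and 39), or 73.4% beside 61.2%, 24 between the stimulated groups (9 and 15), or 25.5% beside 21.3%, and 2 for the interaction, or 2.13% beside 4.23%. With TPM not scaled further the split was 13 higher and 44 lower for PMA/I after IL-2nil, where it was 31 and 19 with no filter, and 9 higher and 1 lower between the stimulated groups. Calls over all genes were 7410 of 12442, 6382 of 24439 and 1486 of 12442 in these fits. With the replicate block there were 39 calls between the stimulated groups and 11 for the interaction, without both moved libraries 8 and 0, and with the labels as they stand 0 and 0. Over all genes these were 4186 and 1478 of 12442 with the block and 1200 and 4 of 12360 without both moved libraries. As labelled they were 27 and 0 of 12442. The block gave 45 wider calls at rest, 54 with PMA/I in IL-2 and 76 with PMA/I after IL-2nil. Over all 12442 genes it gave 6322, 5756 and 8600 calls in these comparisons.

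**Figure D4:**
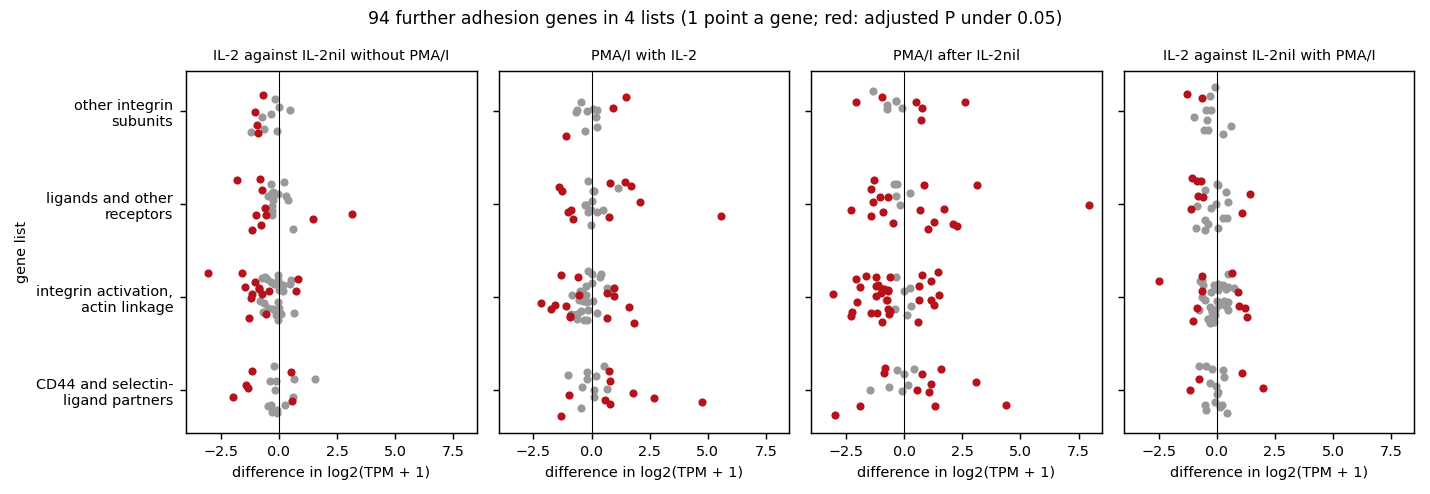
Difference in log2(TPM + 1) (horizontal axes) of the 94 tested genes of the 4 wider adhesion lists (vertical axis) in 4 comparisons, with 1 point a gene and red for an adjusted P under 0.05. Of 34 calls for IL-2 against IL-2nil without PMA/I, 28 lie to the left of 0, and the point farthest right in both PMA/I panels is *Sema7a*.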

How the data were processed

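RNA was depleted of rRNA and made into directional libraries. Per the labels, the authors used Trimmomatic 0.32, HISAT2 2.1.0 and StringTie 1.3.3 with the genome build mm9. Per the methods these removed adapters and poor bases, aligned read pairs with default settings and estimated levels on RefSeq gene models. The deposited values are FPKM per gene name, with no scaling between libraries and no read counts (193815 to 420487 summed per library), so counting intervals and floors were not possible and precision rests on the 3 libraries of a group.

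The design assumed TPM, which the methods name, so each library was first rescaled from FPKM to TPM, only genes that exceeded 1 TPM in 1 library or more were tested, and the 75th percentiles were made equal. The log2(TPM + 1) values were fitted with limma 3.58.1 in R 4.3.3, with 4 groups and no block, leaving 8 residual degrees of freedom. P-values were adjusted by Benjamini-Hochberg over 12442 genes and called under 0.05, with calls over 3-fold counted beside. Changes of genes at low TPM are understated on this scale. The fit was tested on simulated data. The rest used Python 3.11.15 with numpy 2.4.6, pandas 2.3.3 and matplotlib 3.10.9.

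Samples were grouped by their labels except for the 2 moved libraries, whose placement follows the study's list of expression values. That list matched filtered TPM after quantile normalization, in 99.86 to 100% of 1391 genes per library, to within 0.1%. The methods name upper-quartile scaling, which was used here, with quantile normalization as an alternative. Libraries with the same replicate number deviated together from their group means (all 18 correlations over 0.1, from 0.101 to 0.531). The numbers come from the labels, which do not say what same-numbered libraries share. They were taken to pair the libraries, and values with the replicate number as a block are given where they change a call.

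The 9 genes and all lists were chosen with earlier results of these data known. Genes named from the wider lists are among the 2 with the largest called difference in each direction per list and comparison, and those named as alike have the 2 highest correlations. Alternatives were the placement, the scaling, the filter, the pseudocount, the variance model, the samples in the fit, the block and each library left out. Values of some genes in these lists, one of them left out of the B cell sum, are not reported here.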

Additional observations from a re-analysis of the deposited data

Results flagged for a closer look

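*Itgb7* was flagged because all TB IL-2 libraries were below all TB IL-2nil libraries and, after PMA/I, all TB+ IL-2 libraries were above all TB+ IL-2nil libraries. The difference between these effects was 0.55 in log2(TPM + 1) and did not pass the test (limma, adjusted P = 0.148). Over 21 alternatives, the labels as they stand aside, it ranged from 0.41 to 1.03, never with an adjusted P under 0.05.

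*Sema7a* was flagged because its response to PMA/I was smaller in IL-2 than after IL-2nil by 2.36 (interaction -2.36, limma, adjusted P = 0.0307). The labels as they stand aside, this call was lost in 10 of 21 alternatives, without both moved libraries (adjusted P = 0.0965), with TPM not scaled further (0.138), with no filter (0.108) and in 7 of 12 fits without 1 library (0.0575 to 0.0798), with values from -2.77 to -1.90 over the 21. Its level was 8.82, 15.2 and 4.27 TPM in TB IL-2, 2.36, 1.92 and 3.15 TPM in TB IL-2nil, 589, 442 and 349 TPM in TB+ IL-2 and 1001, 807 and 732 TPM in TB+ IL-2nil.

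*Lims1*, whose product PINCH-1 works in the complex that links integrins to actin, was flagged because its response to PMA/I differed with IL-2 by 0.96 (interaction, limma, adjusted P = 0.0482). The labels as they stand aside, this call was lost in 14 of 21 alternatives, without both moved libraries (adjusted P = 0.0841), with TPM not scaled further (0.217), with no filter (0.105), without short non-coding RNA (0.0564), with a pseudocount of 0.1 (0.0716) and in 9 of 12 fits without 1 library (0.0859 to 0.123), with values from 0.82 to 1.42 over the 21. Its level was 50.6, 37.7 and 42.2 TPM in TB IL-2, 107, 109 and 79.7 TPM in TB IL-2nil, 21.3, 24.0 and 20.6 TPM in TB+ IL-2 and 24.7, 23.8 and 27.2 TPM in TB+ IL-2nil.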

How the results depend on the processing

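Leaving out each library in turn, called counts ran from 1 to 2 of the 9 genes between the stimulated groups and from 0 to 2 for the interaction, and in the wider lists from 13 to 23 and from 0 to 12. Over all genes, 12288 to 12431 in these fits, the calls ran from 1427 to 2568 and from 84 to 1302. For the 9 genes, the labels as they stand gave 0, 1, 1 and 0 calls at rest, with PMA/I in IL-2, with PMA/I after IL-2nil and between the stimulated groups, and 0, 0, 7, 0 and, for the interaction, 0 in the wider lists. In the same order they gave 15, 62, 669, 27 and 0 calls over all 12442 genes. TPM with no further scaling gave 3 of the 9 genes with PMA/I in IL-2 and 0 between the stimulated groups, and 18, 24, 10 and 0 wider genes at rest, with PMA/I in IL-2, between the stimulated groups and for the interaction. Over all 12442 genes this scaling gave 2650, 2434, 1486 and 1 calls in these comparisons. Between the stimulated groups 1 of the 9 genes was called without both moved libraries, with no filter and with only the groups compared, and 8, 15 and 8 wider genes. Over all genes these fits called 1200 of 12360, 2012 of 24439 and 1503 of 12442. The replicate block gave 39 wider calls between the stimulated groups, 11 for the interaction and 1 of the 9 genes for the interaction (*Itga4*), and beside *Itgal* at rest and *Itgb1* with PMA/I in IL-2 it changed no other call of the 9 genes. It called 4186 and 1478 of all 12442 genes between the stimulated groups and for the interaction. Quantile normalization gave 1 of the 9 genes and 5 wider genes for the interaction, beside 695 of all 12442 genes. With no filter 21 of 117 wider genes were called at rest, beside 3624 of 24439 genes. Wider calls for the interaction were 1 without short non-coding RNA and 0 with no filter or without both moved libraries. Over all genes these fits called 515 of 12741, 31 of 24439 and 4 of 12360 for the interaction. Without short non-coding RNA all 18 calls of the 9 genes were kept.

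Signs changed mostly in values near 0. As labelled, *Itgb1* was at -0.11 at rest and -0.16 between the stimulated groups, *Itgal* at 0.13 and *Itga4* at 0.25 with PMA/I in IL-2, and *Itga6* at 0.48 between the stimulated groups. Without both moved libraries *Itgb1* was at -0.017 at rest and 0.17 in the interaction, *Itgb2* at 0.094 in the interaction and *Selplg* at -0.088 between the stimulated groups. With no further scaling *Itgb1* and *Itgb2* were at -0.0069 and -0.42 with PMA/I after IL-2nil and at 0.42 and 0.46 in the interaction, and *Itga6* and *Itgb2* at 0.35 and 0.28 between the stimulated groups. Quantile normalization put *Itgb2* at -0.14 and -0.34 with PMA/I in IL-2 and after IL-2nil, and *Itgb1* and *Itgb2* at 0.011 and 0.20 in the interaction. With no filter, which also changes the percentile used for scaling, *Itgal* was at 0.097 with PMA/I in IL-2 and -0.050 between the stimulated groups, and *Itgb1* at -0.046 there. Leaving out each library, *Itgb1* ran from -0.030 to 0.20 and *Cd44* from -0.29 to 0.062 at rest. Between the stimulated groups *Itgal* ran from -0.088 to 0.20, *Itga6* from -0.24 to 0.17, *Itgb1* from -0.097 to 0.18 and *Selplg* from -0.091 to 0.65. In the interaction *Itgb1* ran from -0.20 to 0.082, *Itgb2* from -0.092 to 0.072 and *Icam1* from -0.013 to 0.41. The cause was not tested. With the labels as they stand aside, *Itga4* and *Itga6* at rest, *Icam1*, *Cd44* and *Selplg* with PMA/I in IL-2, and *Itga4*, *Itga6*, *Itgb7*, *Cd44* and *Selplg* with PMA/I after IL-2nil were called in all 16 alternatives. Depth cannot be read as counts, so the error of low values is known only from the 3 libraries.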
